A study of Homo sapiens with 60 samples.

Results

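Hepcidin, the iron hormone encoded by HAMP, was described here together with 7 genes that are known targets or feedback regulators of BMP-SMAD signalling, namely ID1, ID2, ID3, SMAD6, SMAD7, SMAD9 and BAMBI. The 8 genes were taken by name from a table of 60675 Ensembl genes, and all 8 were among the 16167 that passed the filter on low counts. The genes were chosen by their measured CPM across these same groups, that is with their response to the extracts already known, so their own values are given as a description and no test on them is offered as evidence. RNA had been sequenced from HepG2 cells, a human hepatocellular carcinoma line. The treated cells had been kept for 24 h with a hot-water extract of a tonifying herbal medicine, and the control cells with vehicle alone (dimethyl sulfoxide, given as 0.1% by the labels of the samples but as 2% by the design text).

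The extracts were 4 single herbs, Cinnamomi Cortex, Rehmanniae Radix Preparata, Cnidii Rhizoma and Astragali Radix, and 3 formulas of several herbs, Samul-tang, Sagunja-tang and Palmul-tang. Each was given at 20, 100 and 500 µg/mL. Every group had 3 libraries except Palmul-tang, which had 1 library per dose and was only described. The sample codes put Cnidii Rhizoma with Rehmanniae Radix Preparata in a set numbered 5 and Cinnamomi Cortex with Astragali Radix in set 6. They put Sagunja-tang with Samul-tang in set 7 and Palmul-tang in a set of its own, while the vehicle codes carry none of these numbers. All sample titles, vehicle included, name the same batch. What the set numbers stand for is not given by the labels. Treatment and set cannot be told apart in a comparison with vehicle, whereas the dose trend of an extract lies within 1 set. The labels do not say that replicates were separate cultures, so the errors cover the spread between these libraries, which may be technical.

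Total counts ran from 16.5 to 34.4 M per library, with a median of 25.5 M. Levels are given in CPM, a gene's count relative to the total of its library after scaling by TMM, a factor that evens out composition between libraries. The factors ran from 0.833 to 1.05, and the lowest belonged to Cinnamomi Cortex at 500 µg/mL, with 0.833 to 0.862. Mitochondrial genes took 19.4 to 22.3% of counts in Cinnamomi Cortex at 500 µg/mL, 16.0 to 22.6% in Cnidii Rhizoma and 15.2 to 20.4% in Rehmanniae Radix Preparata at that dose, against 14.4 to 16.7% in vehicle. Summed liver markers (albumin, AFP, apolipoproteins and others) held 47481 to 60507 CPM over all libraries, with 59395 to 60507 in Cinnamomi Cortex at 500 µg/mL, against 51594 to 53599 in vehicle. Summed markers of blood, endothelial and stromal cells held 116.6 to 224.0 CPM, with 199.6 to 224.0 in Cinnamomi Cortex at 500 µg/mL, against 127.7 to 135.0 in vehicle, and 4 of these 10 markers, PTPRC, CD3E, KDR and COL1A2, had at most 3 counts in any library. The part of these shares and markers in the results was not tested. In bulk RNA, fewer cells that express a gene and less of its RNA per cell cannot be told apart.

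Hepcidin is secreted by the liver and lowers iron in blood by causing the iron exporter ferroportin to be degraded. Its transcription is driven by bone morphogenetic proteins (BMPs), whose receptors phosphorylate SMAD1, SMAD5 and SMAD9, which then act with SMAD4, and also by interleukin 6 through STAT3. The ID genes encode proteins that bind basic helix-loop-helix factors and keep them off DNA, and they are classic direct targets of BMP-SMAD signalling. SMAD6 and SMAD7 are inhibitory SMADs induced as feedback, and BAMBI is a membrane pseudoreceptor without a kinase domain that dampens BMP and TGF-beta receptors.

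On GRCh38 with GENCODE 29, HAMP (ENSG00000105697) lies on chromosome 19 from 35280716 to 35285143. ID1 (ENSG00000125968) lies on chromosome 20 from 31605283 to 31606515, ID2 (ENSG00000115738) on chromosome 2 from 8678845 to 8684453, and ID3 (ENSG00000117318) on chromosome 1 from 23557918 to 23559794. SMAD6 (ENSG00000137834) lies on chromosome 15 from 66702228 to 66782848 and SMAD7 (ENSG00000101665) on chromosome 18 from 48919853 to 48952052. SMAD9 (ENSG00000120693) lies on chromosome 13 from 36844831 to 36920765 and BAMBI (ENSG00000095739) on chromosome 10 from 28677342 to 28682939. All are protein coding. ID2 shares 38 exon bases with ID2-AS1 on the opposite strand, and whether the counting used strand is not given in the sources used here.

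The region before the start of each gene was read from a RefSeq promoter table (GRCh38.p14), in which all 8 genes were found, and searched on both strands over 250 bases. The motifs were GGCGCC, the core of a BMP-responsive element, GTCT (AGAC on the other strand), the core bound by SMAD proteins, and TTCNNNGAA, the palindrome bound by STAT factors. The HAMP window held 1 GGCGCC, 1 TTCNNNGAA and 5 GTCT, and no stretch of it is shown. Stretches are shown for ID3 and ID1, which tracked HAMP, and for BAMBI, which did not. Capitals mark the motifs.

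The ID3 stretch lies at chr1:23559653-23559682 on the minus strand, 181 to 152 bases upstream of the RefSeq start, and holds the STAT palindrome and a SMAD core. That start lies inside the GENCODE 29 gene, in which all 30 bases of the stretch are exonic.
ID3 site: TTCTTTGAAtccgcggctccgcgGTCTtcg

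The ID1 stretch lies at chr20:31605039-31605282 on the plus strand, 250 to 7 bases upstream, and holds 3 SMAD cores.
ID1 upstream: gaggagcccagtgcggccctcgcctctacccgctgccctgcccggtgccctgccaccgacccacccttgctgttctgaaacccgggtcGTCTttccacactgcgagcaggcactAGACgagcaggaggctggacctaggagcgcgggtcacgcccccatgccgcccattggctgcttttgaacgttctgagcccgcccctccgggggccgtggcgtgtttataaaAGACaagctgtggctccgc

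The BAMBI stretch lies at chr10:28677271-28677341 on the plus strand, 250 to 180 bases upstream, and ends inside a further copy of GGCGCC.
BAMBI upstream: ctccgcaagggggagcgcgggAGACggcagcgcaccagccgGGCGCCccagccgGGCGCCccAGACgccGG

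GGCGCC was found in 16.4% of 35116 promoter windows of the same length, GTCT in 77.5% and TTCNNNGAA in 6.57%. A match of this kind is a description of letters, and the SMAD core is so short that most promoters hold it.

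Hepcidin mRNA was lower in 5 of the 6 replicated extracts at 500 µg/mL than in vehicle, and lowest with Cinnamomi Cortex. HAMP stood at 0.308, 0.184 and 0.191 CPM with Cinnamomi Cortex at 500 µg/mL, against 5.78, 7.68 and 5.98 CPM in vehicle. These were 7, 4 and 4 reads in the treated libraries, against 151, 232 and 165 reads in the vehicle libraries. The treated libraries lay far below every vehicle library, and the vehicle mean was 28.5 times the treated mean. The fitted change was -4.80 ± 0.27 on the log2 scale (SE, edgeR quasi-likelihood model, n = 3 against 3). This SE was derived from the test statistic, and with so few reads counting error can exceed it.

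Samul-tang, a formula that is traditionally a blood tonic, came next. HAMP stood at 0.467, 0.375 and 0.397 CPM with Samul-tang at 500 µg/mL, a fitted log2 change of -3.95 ± 0.23 from vehicle. Rehmanniae Radix Preparata at 500 µg/mL gave 1.18, 1.51 and 1.14 CPM (-2.34 ± 0.18), and Cnidii Rhizoma at 500 µg/mL gave 1.96, 1.48 and 1.06 CPM (-2.10 ± 0.18). None of these libraries overlapped the vehicle libraries. Sagunja-tang at 500 µg/mL gave 2.61, 3.24 and 3.87 CPM (-1.0 ± 0.16), also all below vehicle. Astragali Radix was the exception at this dose, with 6.00, 6.10 and 5.03 CPM (-0.20 ± 0.15), values that overlapped those of vehicle. The single Palmul-tang library at 500 µg/mL had 16 reads of HAMP, or 0.502 CPM (95% exact Poisson interval 0.287 to 0.815, counting error only), below each vehicle library.

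The lower level was graded with dose. With Cinnamomi Cortex the mean of HAMP was 3.83 ± 0.32 CPM at 20 µg/mL, 1.28 ± 0.38 at 100 and 0.227 ± 0.070 at 500 (SD, n = 3). With Samul-tang it was 5.04 ± 1.43 CPM at 20 µg/mL, 2.58 ± 0.34 at 100 and 0.413 ± 0.048 at 500. With Rehmanniae Radix Preparata it was 3.99 ± 0.74, 3.00 ± 0.078 and 1.28 ± 0.20 CPM at 20, 100 and 500 µg/mL. In these extracts each dose had a lower mean than the dose below it, and no library at 500 µg/mL reached the lowest library at 20 µg/mL. With Cnidii Rhizoma the means were 5.47 ± 0.68, 4.44 ± 0.32 and 1.5 ± 0.45 CPM in the same order of dose, and with Sagunja-tang 5.36 ± 0.50, 4.54 ± 0.19 and 3.24 ± 0.63 CPM. With Astragali Radix they were 5.21 ± 0.76, 5.39 ± 0.34 and 5.71 ± 0.59 CPM, higher at each step and well within the spread. Palmul-tang had 4.63, 3.47 and 0.502 CPM at 20, 100 and 500 µg/mL.

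Written as a slope, the log2 change of HAMP per 5-fold step of dose was -2.02 ± 0.14 with Cinnamomi Cortex, -1.80 ± 0.12 with Samul-tang, -0.93 ± 0.09 with Cnidii Rhizoma and -0.82 ± 0.10 with Rehmanniae Radix Preparata. It was -0.36 ± 0.08 with Sagunja-tang and 0.06 ± 0.08 with Astragali Radix. These slopes compare libraries of 1 set with each other and do not involve vehicle. Vehicle had the highest mean of the 19 replicated groups. In the order of the 19 means, only 3 of 18 steps between neighbours exceeded the sum of their SDs, and all 3 were in the low range, below Samul-tang at 100 µg/mL, below Rehmanniae Radix Preparata at 500 and below Samul-tang at 500.

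**Figure D1:**
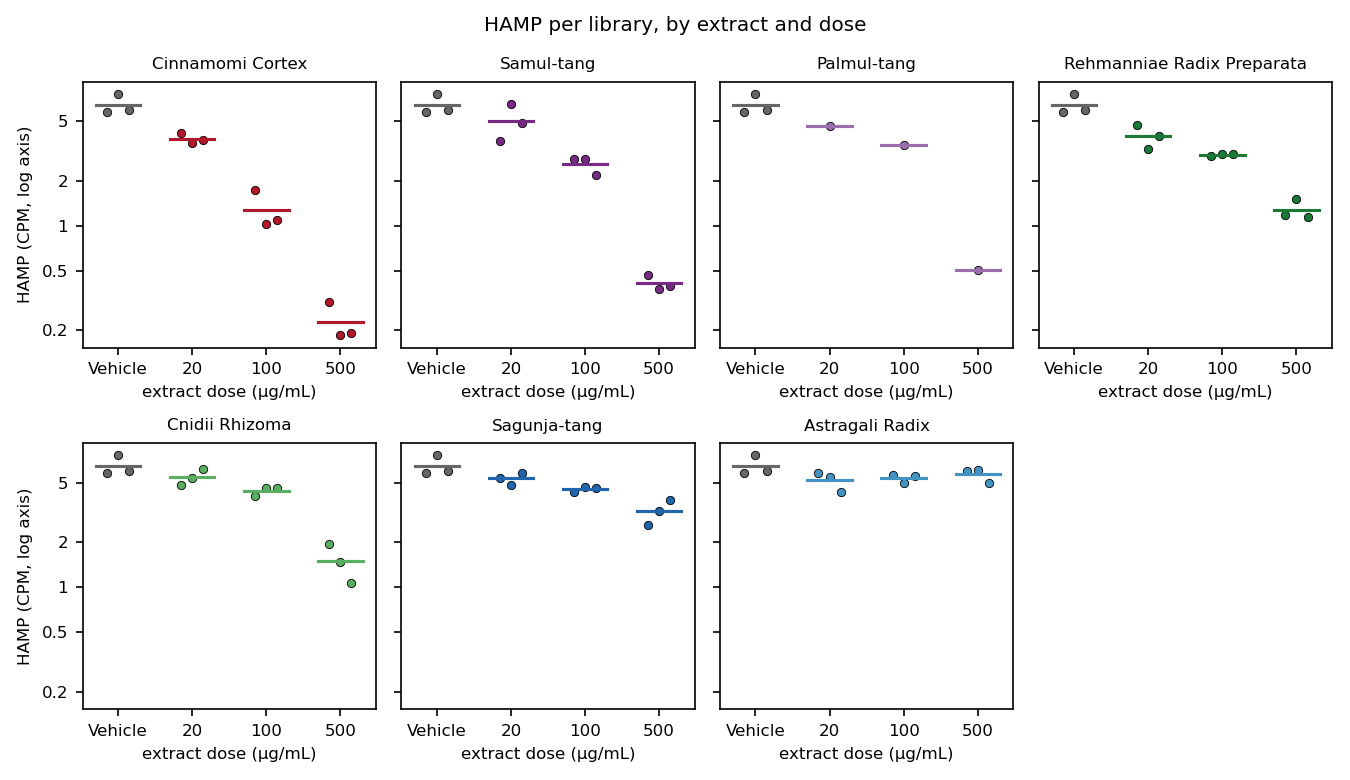
HAMP level in CPM (log axis) by dose for each extract, with vehicle at the low end of each panel; points are libraries and short horizontal lines are group means. The Cinnamomi Cortex libraries at 500 µg/mL sit between 0.184 and 0.308 CPM and the Samul-tang libraries between 0.375 and 0.467, while the Astragali Radix libraries stay between 4.36 and 6.10 CPM at all doses.

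ID3 and ID1 were lowest with Cinnamomi Cortex, Samul-tang and Rehmanniae Radix Preparata, the 3 replicated extracts in which HAMP was lowest. ID3 stood at 4.22, 3.31 and 3.05 CPM with Cinnamomi Cortex at 500 µg/mL, against 13.7, 14.3 and 11.7 CPM in vehicle. Samul-tang at 500 µg/mL gave 3.70, 5.16 and 3.71 CPM, and Rehmanniae Radix Preparata gave 6.27, 7.00 and 8.72 CPM. All 9 libraries lay below the lowest vehicle library. The fitted log2 changes of ID3 were -1.90 ± 0.14, -1.67 ± 0.13 and -0.84 ± 0.12 in that order. Cnidii Rhizoma was lower by less, with 11.3, 9.52 and 11 CPM (-0.32 ± 0.11).

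With the remaining extracts ID3 was on the other side of vehicle. Sagunja-tang at 500 µg/mL gave 15.2, 17.6 and 16.7 CPM (0.32 ± 0.11), and Astragali Radix gave 17.6, 16.0 and 15.3 CPM (0.30 ± 0.11). Their libraries all exceeded the vehicle libraries, although Sagunja-tang had lower HAMP at that dose. Palmul-tang at 500 µg/mL had 6.21 CPM of ID3 (95% exact Poisson interval 5.37 to 7.14), below vehicle.

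The dose series of ID3 showed where the lower level began. With Cinnamomi Cortex the means were 11.9 ± 0.21, 8.78 ± 0.87 and 3.53 ± 0.61 CPM at 20, 100 and 500 µg/mL, and with Rehmanniae Radix Preparata 13.0 ± 1.4, 10.2 ± 0.55 and 7.33 ± 1.26. With Samul-tang they were 15.9 ± 3.2, 11.8 ± 0.45 and 4.19 ± 0.84 CPM, where the wide spread at 20 µg/mL came from replicate 2 at 19.5 CPM beside 13.4 and 14.8. In both of the first series the 100 µg/mL group already lay below vehicle in every library, and the Samul-tang group at 100 overlapped it. The slopes per 5-fold step were -0.97 ± 0.06 with Samul-tang, -0.88 ± 0.07 with Cinnamomi Cortex, -0.40 ± 0.06 with Rehmanniae Radix Preparata and -0.28 ± 0.06 with Cnidii Rhizoma, and they were 0.06 ± 0.05 with Sagunja-tang and 0.07 ± 0.05 with Astragali Radix.

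ID1 had the same order of extracts with smaller changes. It stood at 33.0, 32.0 and 34.2 CPM with Cinnamomi Cortex at 500 µg/mL, against 86.5, 69.9 and 73.4 CPM in vehicle. Samul-tang at 500 µg/mL gave 39.2, 39.0 and 38 CPM and Rehmanniae Radix Preparata 52.5, 53.6 and 58.7 CPM. These 3 groups lay below vehicle without overlap, with fitted log2 changes of -1.21 ± 0.10, -0.98 ± 0.09 and -0.48 ± 0.09. Cnidii Rhizoma gave 70.2, 78.2 and 79.8 CPM, which overlapped vehicle, although the vehicle mean of HAMP was 4.33 times that with Cnidii Rhizoma.

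Against vehicle, the lower ID1 level appeared at the top dose. Vehicle is a low baseline here, since every extract at 20 µg/mL had a higher ID1 mean, from 79.1 to 97.4 CPM. With Cinnamomi Cortex and Samul-tang the means were already lower at 100 than at 20 µg/mL, though within the spread. With Cinnamomi Cortex the means of ID1 were 79.1 ± 2.8, 71.6 ± 6.3 and 33.1 ± 1.1 CPM at 20, 100 and 500 µg/mL, and with Samul-tang 94.5 ± 18.5, 80.9 ± 2.1 and 38.7 ± 0.66 CPM. At 100 µg/mL ID1 overlapped vehicle in both extracts, while HAMP was at 19.8% and 39.9% of the vehicle mean with no overlap. Sagunja-tang and Astragali Radix held ID1 at 94.5 ± 15.2 and 92.6 ± 0.48 CPM at 500 µg/mL, against 76.6 ± 8.7 CPM in vehicle. ID1 was also above all vehicle libraries with Astragali Radix at that dose, whereas the Sagunja-tang libraries overlapped vehicle.

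ID2 parted from its paralogs with Cinnamomi Cortex. It stood at 62.5, 56.5 and 59.5 CPM with Cinnamomi Cortex at 500 µg/mL, against 64.1, 65.9 and 64.5 CPM in vehicle, a fitted log2 change of -0.12 ± 0.08. Its log2 ratio there was -0.40 when CPM was taken over the total count, a scaling that shifts the median of all genes by -0.27 in that group. With Samul-tang at the same dose it stood at 39.8, 39.7 and 33.6 CPM (-0.78 ± 0.08), and with Rehmanniae Radix Preparata at 51.2, 50.8 and 49.8 CPM (-0.36 ± 0.08). Samul-tang therefore had the lowest ID2 of the 19 replicated groups and Cinnamomi Cortex the lowest ID1 and ID3. Astragali Radix at 500 µg/mL had 71.2, 79.9 and 75.3 CPM of ID2, all above vehicle (0.22 ± 0.08).

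**Figure D2:**
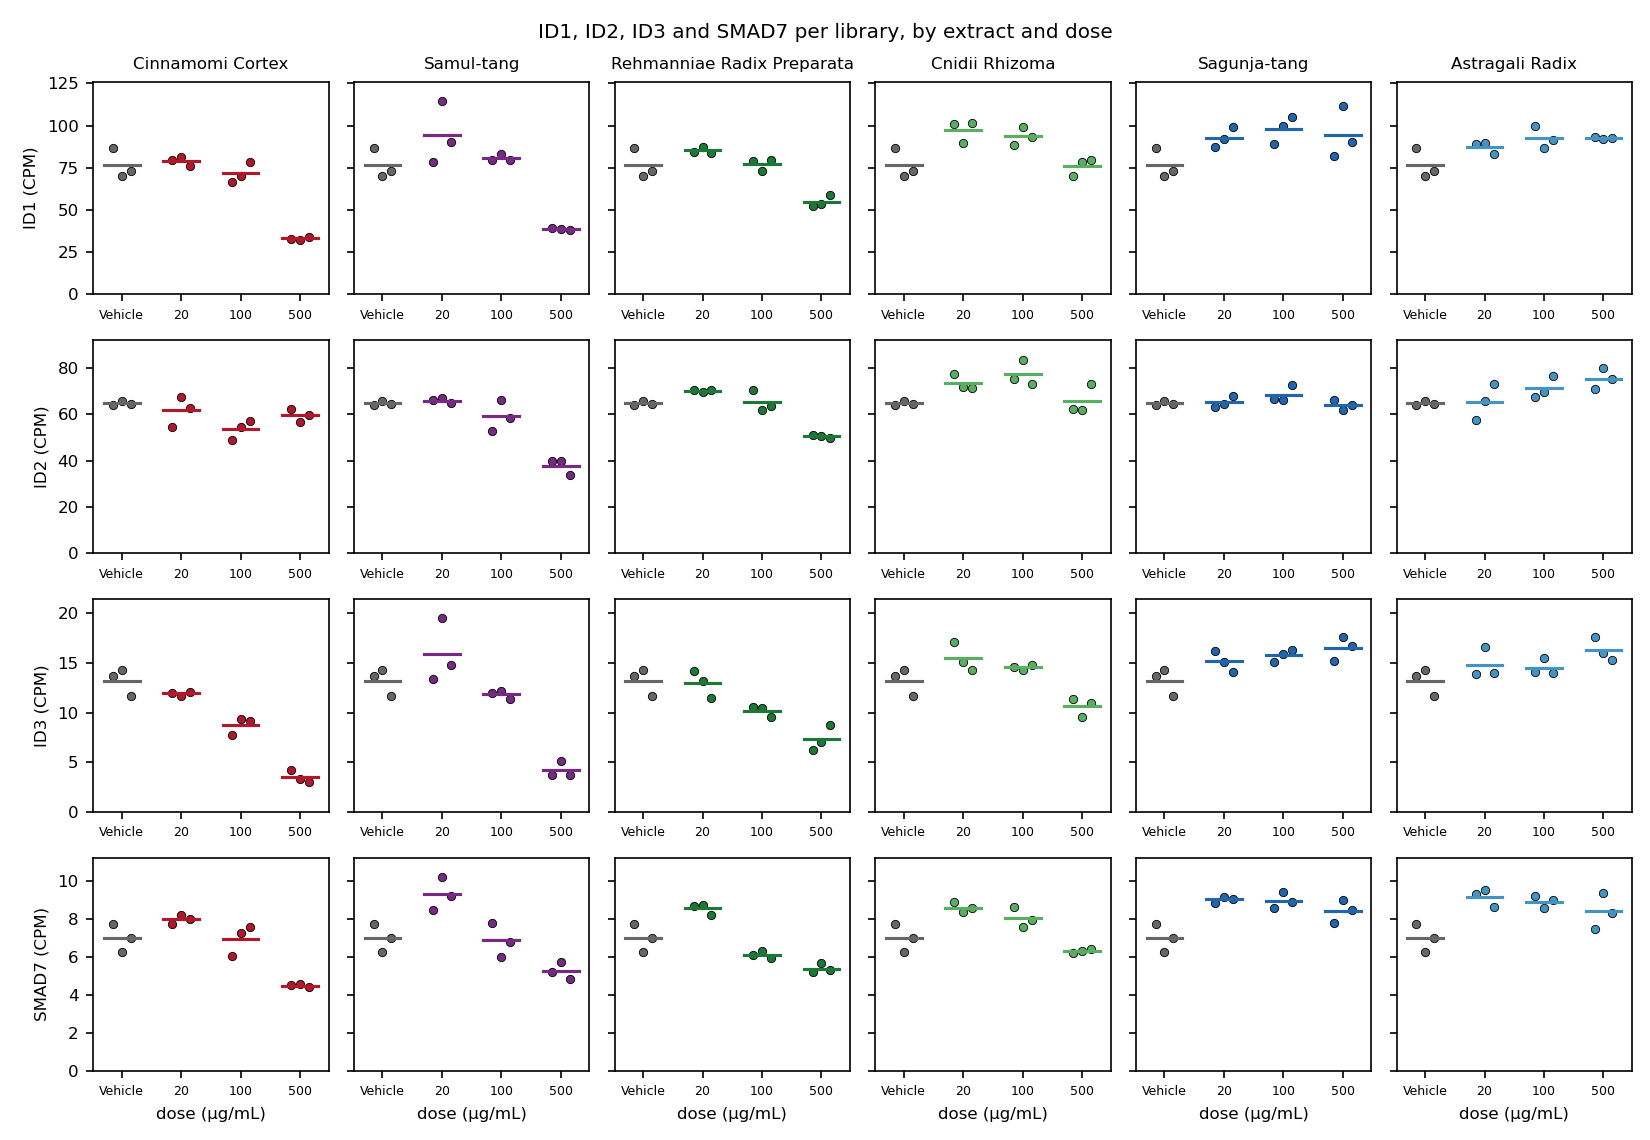
Levels of ID1, ID2, ID3 and SMAD7 in CPM by dose for each extract, with vehicle at the low end; points are libraries and short horizontal lines are group means. At 500 µg/mL ID3 is at 3.53 CPM with Cinnamomi Cortex and 4.19 with Samul-tang against 13.2 in vehicle, while ID2 with Cinnamomi Cortex is at 59.5 against 64.8.

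Of the feedback inhibitors, SMAD7 went with ID1 and ID3, and in all 6 extracts its mean was lower at each higher dose. SMAD7 stood at 4.48, 4.55 and 4.38 CPM with Cinnamomi Cortex at 500 µg/mL, against 7.70, 6.23 and 6.96 CPM in vehicle (fitted log2 change -0.63 ± 0.10). Samul-tang gave 5.17, 5.72 and 4.81 CPM (-0.41 ± 0.09) and Rehmanniae Radix Preparata 5.18, 5.64 and 5.29 CPM (-0.37 ± 0.09). These libraries were all below vehicle, and those of Cnidii Rhizoma, at 6.18, 6.29 and 6.42 CPM, overlapped it.

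At 20 µg/mL each library of the 6 extracts lay above the highest vehicle library of SMAD7. Its means were 9.27 ± 0.87 CPM with Samul-tang, 9.14 ± 0.47 with Astragali Radix, 9.01 ± 0.15 with Sagunja-tang, 8.58 ± 0.26 with Cnidii Rhizoma, 8.54 ± 0.28 with Rehmanniae Radix Preparata and 7.96 ± 0.23 with Cinnamomi Cortex, against 6.96 ± 0.74 CPM in vehicle. Since the vehicle codes carry no set number of an extract, this offset and a set difference cannot be told apart. Within a set, the slope of SMAD7 per 5-fold step was -0.42 ± 0.05 with Cinnamomi Cortex, -0.42 ± 0.04 with Samul-tang, -0.33 ± 0.05 with Rehmanniae Radix Preparata and -0.22 ± 0.04 with Cnidii Rhizoma. It was only -0.05 ± 0.04 with Sagunja-tang and -0.06 ± 0.04 with Astragali Radix, where the libraries at 500 and 20 µg/mL overlapped.

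SMAD6 is the inhibitory SMAD more selective for BMP receptors. It stood at 2.94, 3.26 and 3.00 CPM with Cinnamomi Cortex at 500 µg/mL, against 4.79, 5.63 and 4.79 CPM in vehicle (-0.73 ± 0.13). Samul-tang gave 3.52, 2.86 and 4.11 CPM (-0.53 ± 0.13), also below vehicle. Vehicle had the highest SMAD6 mean of the 19 groups, and no step between neighbours in their order exceeded the spread.

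SMAD9, a receptor-activated SMAD of the BMP branch that is itself a target of the pathway, varied little. Its mean at 500 µg/mL ran from 11.5 CPM with Cnidii Rhizoma and Cinnamomi Cortex to 12.9 CPM with Sagunja-tang, against 13.5 ± 0.85 CPM in vehicle. In all 6 extracts each library at 500 µg/mL lay below each library at 20 µg/mL, Astragali Radix included, where the means of SMAD9 were 15.4 ± 0.99, 13.5 ± 1.1 and 12.4 ± 0.24 CPM at 20, 100 and 500 µg/mL. With Astragali Radix the mean of SMAD9 was thus lower at each higher dose, while that of HAMP was not. The share of all genes that separate by dose in this way was not counted. The SMAD9 slope was -0.16 ± 0.03 with Astragali Radix and Cnidii Rhizoma and -0.13 ± 0.03 with Cinnamomi Cortex. It was -0.12 ± 0.03 with Rehmanniae Radix Preparata, -0.08 ± 0.03 with Sagunja-tang and -0.07 ± 0.03 with Samul-tang, which were not among the trends called below.

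BAMBI varied least. It stood at 9.18, 9.74 and 10.6 CPM with Cinnamomi Cortex at 500 µg/mL, against 7.81, 8.94 and 9.46 CPM in vehicle, and the libraries overlapped. Its log2 ratio was 0.17, or -0.11 when CPM was taken over the total count, a scaling under which that of SMAD9 was -0.50 in place of -0.23. The highest BAMBI mean of the 19 groups was 1.23 times the lowest, against 28.5 times for HAMP, 4.68 for ID3, 2.96 for ID1, 2.07 for SMAD7, 2.05 for ID2, 1.65 for SMAD6 and 1.34 for SMAD9.

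**Figure D3:**
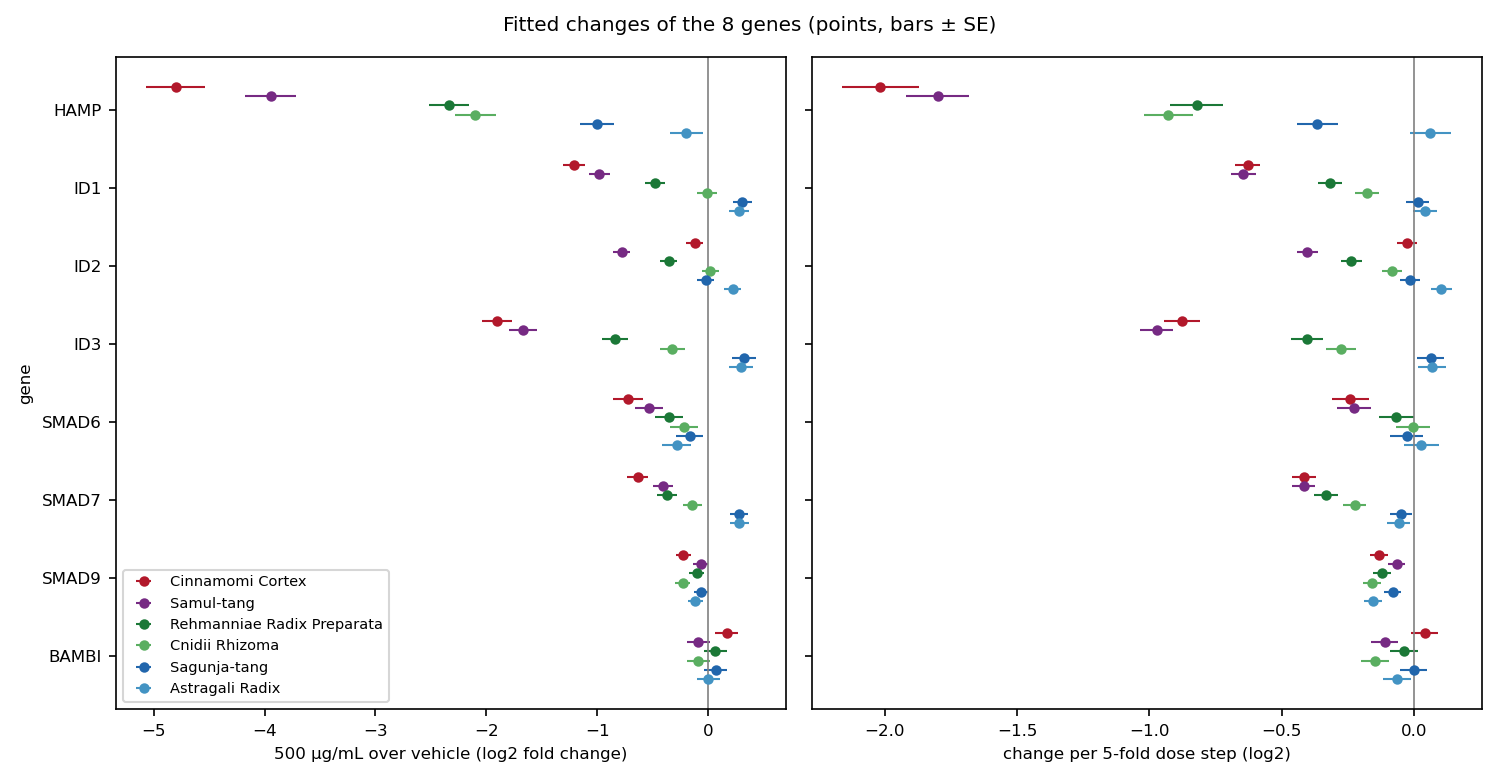
Fitted log2 changes of the 8 genes (points) with standard errors (bars), by extract, at 500 µg/mL against vehicle in the left panel and per 5-fold step of dose in the right panel. At 500 µg/mL HAMP runs from -4.80 with Cinnamomi Cortex to -0.20 with Astragali Radix, and BAMBI stays between -0.09 and 0.17.

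Counted at an adjusted p under 0.05 over all 16167 genes (edgeR, Benjamini-Hochberg), 6 of the 8 genes were called lower with Cinnamomi Cortex at 500 µg/mL, where 31.6% of all genes were called lower. Samul-tang had 6 called lower beside 6.24% of all genes, Rehmanniae Radix Preparata 5 beside 3.58%, Cnidii Rhizoma 2 beside 5.67%, and Sagunja-tang 1 beside 5.52%. Sagunja-tang also had 3 called higher beside 6.76% of all genes, and Astragali Radix had none of the 8 called beside 3.04% called in either direction. The 3 higher calls of Sagunja-tang were ID1, ID3 and SMAD7, and its count of called members was between 1 and 4 over the alternative settings. That of Cinnamomi Cortex was 6 or 7, and that of Cnidii Rhizoma was between 1 and 3, with 1 called without its replicate 1 at 500 µg/mL. With Sagunja-tang 1 of the 8 was called without vehicle replicate 3. Astragali Radix had 2 of the 8 called without vehicle replicate 1. Without vehicle replicate 1 the genes called in either direction came to 937 with Cnidii Rhizoma, 536 with Rehmanniae Radix Preparata, 223 with Astragali Radix and 1436 with Samul-tang, against 1904, 1204, 492 and 2212 with it. These counts and the medians that follow describe genes chosen for their response and are read no further. The median log2 change of the 8 genes was -0.68 with Cinnamomi Cortex, -0.66 with Samul-tang and -0.36 with Rehmanniae Radix Preparata, beside -0.02, -0.01 and 0.00 for all genes tested.

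The dose trend leaves out vehicle but shares the libraries of the top dose with the comparison above. Since the genes were chosen with their CPM in these groups known, the trend is a further description and no separate evidence. It was called lower for 6 of the 8 genes with Cinnamomi Cortex, beside 31.4% of all genes, and for 6 with Samul-tang, beside 5.4%. The Samul-tang background rests on replicate 2 at 20 µg/mL, since 153 genes were called in either direction without it and 1597 with it, and 5 of the 8 genes were then still called. Rehmanniae Radix Preparata had 5 of the 8 called lower beside 0.315% of all genes, and Cnidii Rhizoma 5 beside 1.86%. Sagunja-tang had HAMP alone called lower, beside 2.29%, and Astragali Radix had SMAD9 alone, beside 0.835%, a call lost without replicate 1 at 20 µg/mL.

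Across the 22 groups, Palmul-tang included, the genes most like HAMP were sought by Pearson's r of group mean log2 CPM among 11941 genes with at least 2 CPM on average. The highest r was that of ID3 (0.955), followed by PAQR8 (0.946), SEMA3B (0.921), ID1 (0.920) and PPIF (0.905). The lowest belonged to SPP1 (-0.841), NES (-0.841), GCLM (-0.839), HKDC1 (-0.838) and ABCG2 (-0.838). SMAD7 was 7th in that order (0.896), ID2 48th (0.780), SMAD6 267th (0.692), SMAD9 1365th (0.563) and BAMBI 5155th (0.133). The groups of 1 extract share a set and a treatment, so r is given as a description, without a p.

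Without Cinnamomi Cortex at 500 µg/mL the leading genes were ID3 (0.933), PAQR8 (0.924), ID2 (0.902), SEMA3B (0.899) and ID1 (0.882). ID2 moved from 48th to 3rd place, which follows from leaving out the group already seen to part it from its paralogs. The r between ID1 and ID2 was 0.750 with that group and 0.926 without it, while that between ID1 and ID3 was 0.980 and 0.970. The lowest r with HAMP then belonged to CAVIN2, GPAT3, MBL2, ETFB and TIMP3, none of which was among the lowest 5 with all groups. For ID1 the lowest r over all groups were those of LINC00511 (-0.870) and HMOX1 (-0.853).

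**Figure D4:**
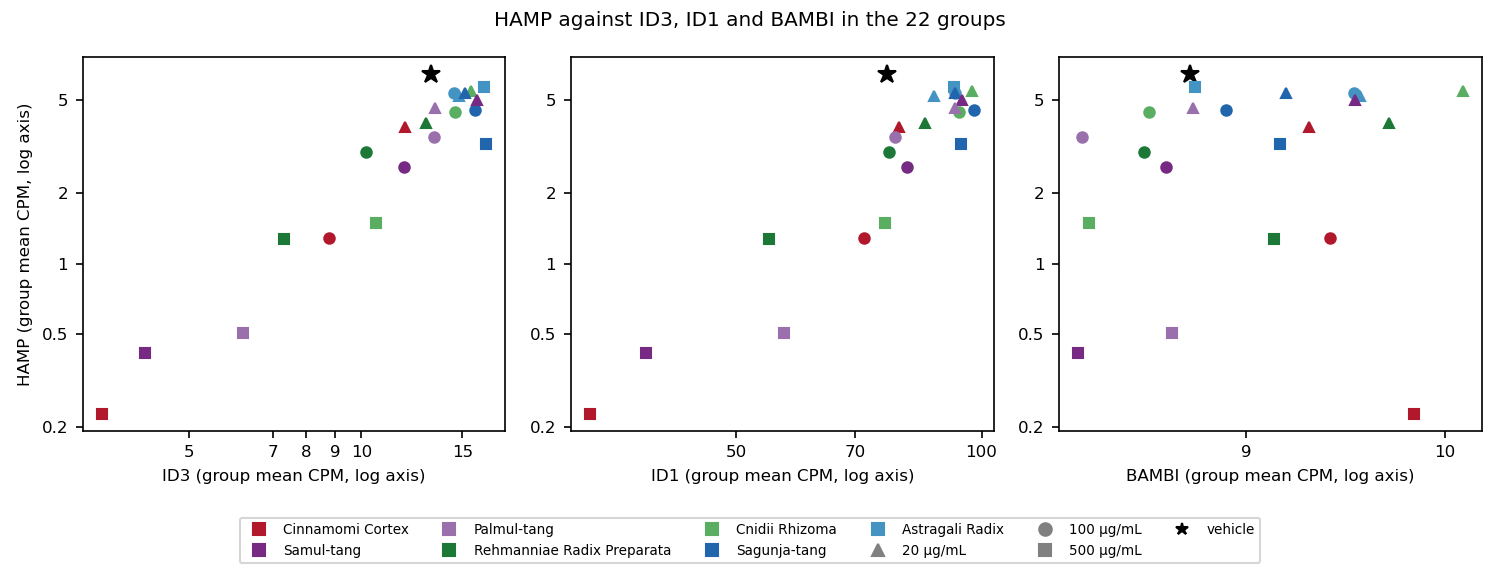
Group mean CPM of HAMP (y axis) against that of ID3, ID1 and BAMBI (x axes), all on log axes, 1 point per group over 22 groups, with colour for the extract and shape for the dose. HAMP is higher where ID3 and ID1 are higher (r = 0.955 and 0.920), and shows little relation to BAMBI (r = 0.133).

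The other genes of the pathway were counted from lists of ligands, receptors, transducers, inhibitors, further targets and the iron machinery, 110 genes of which 76 were tested. With Cinnamomi Cortex at 500 µg/mL 44 rose and 17 fell, beside 62.7% of all genes called. Samul-tang had 12 that rose and 8 that fell (13.7% of all genes called), Rehmanniae Radix Preparata 9 and 9 (7.45%), Cnidii Rhizoma 7 and 12 (11.8%), Sagunja-tang 7 and 8 (12.3%), and Astragali Radix 2 and 3 (3.04%). Without Astragali Radix replicate 2 at that dose, 3 genes in all were called for that extract. The median log2 change over the 76 genes was 0.19 with Cinnamomi Cortex and between -0.04 and 0.03 with the others. In the dose trend 57 of the 76 genes were called with Cinnamomi Cortex (61.9% of all genes), 17 with Samul-tang (9.88%), 9 with Cnidii Rhizoma (3.22%), 9 with Sagunja-tang (4.99%), 6 with Rehmanniae Radix Preparata (0.674%) and 5 with Astragali Radix (1.16%). Leaving out 1 library gave 6 to 24 with Samul-tang, 4 to 11 with Cnidii Rhizoma, 4 to 9 with Sagunja-tang and 1 to 5 with Astragali Radix. Named genes below kept their call in every alternative setting unless stated.

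The activin subunits among the ligands rose with Cinnamomi Cortex. INHBB was at 8.96 ± 1.06 CPM with Cinnamomi Cortex at 500 µg/mL, against 2.01 ± 0.14 CPM in vehicle, a log2 change of 2.16 ± 0.14 (edgeR adjusted p = 8.56e-19, n = 3 against 3). INHBE, which encodes the liver's activin E subunit, was at 40.6 ± 2.0 CPM, against 13.1 ± 0.90 in vehicle (1.63 ± 0.08). BMP4 was not called there, with 74.8 ± 2.7 CPM with Cinnamomi Cortex and 70.8 ± 1.5 CPM in vehicle. Of the 14 ligands listed, 4 were tested, and outside Cinnamomi Cortex at most 1 was called at 500 µg/mL in any extract.

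Among the receptors, ACVR1, a type I receptor of the BMP branch, rose with Cinnamomi Cortex at 500 µg/mL to 27.1 ± 0.67 CPM against 13.6 ± 0.92 in vehicle (log2 change 0.99 ± 0.07, edgeR adjusted p = 1.61e-16). BMPR2 (0.29 ± 0.05) and ACVR2B (0.36 ± 0.05), type II receptors, rose by less. Of 11 receptors tested 5 rose and 2 fell with Cinnamomi Cortex, and none was called with Cnidii Rhizoma or Rehmanniae Radix Preparata. The transducers SMAD1 and SMAD5 were called in no extract at 500 µg/mL, with adjusted p (edgeR) of 0.0922 or more for SMAD1 and 0.0591 or more for SMAD5. SMAD1 was at 8.81 ± 1.1 CPM with Cinnamomi Cortex, 9.09 ± 0.86 with Samul-tang and 10.2 ± 0.91 in vehicle. SMAD4, the shared partner, rose with Cinnamomi Cortex (0.37 ± 0.06) and was not called elsewhere.

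The secreted inhibitors went in opposite directions. With Cinnamomi Cortex at 500 µg/mL FST, follistatin, which binds activins and some BMPs, rose to 141.5 ± 0.32 CPM, against 41.9 ± 1.9 in vehicle (log2 change 1.76 ± 0.05, edgeR adjusted p = 7.6e-32). FSTL3, a related activin binder, rose by 1.58 ± 0.10. CHRD, chordin, which sequesters BMPs, fell to 12.3 ± 0.17 CPM, against 41.8 ± 0.64 in vehicle (-1.76 ± 0.09, adjusted p = 2.31e-22).

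In the other extracts FST had the opposite sign with dose. Its dose trend was lower per 5-fold step with Astragali Radix (-0.25 ± 0.03), Cnidii Rhizoma (-0.24 ± 0.03), Samul-tang (-0.19 ± 0.03), Rehmanniae Radix Preparata (-0.17 ± 0.03) and Sagunja-tang (-0.15 ± 0.03), each with an edgeR adjusted p of 0.000191 or less, and higher with Cinnamomi Cortex (0.74 ± 0.03). FST fell in this way also with Astragali Radix, where HAMP did not follow dose. FURIN, a protease that processes BMP and hepcidin precursors, was at 19.7 ± 0.70 CPM with Samul-tang at 500 µg/mL, 21.4 ± 1.4 with Sagunja-tang, 22.2 ± 1.6 with Rehmanniae Radix Preparata and 22.3 ± 0.30 with Cnidii Rhizoma, against 28.4 ± 0.93 in vehicle. FURIN fell in these 4 (log2 changes -0.52 ± 0.07, -0.40 ± 0.07, -0.35 ± 0.07 and -0.35 ± 0.07) and rose with Cinnamomi Cortex (0.50 ± 0.07).

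Of the intracellular inhibitors of SMAD signalling, 6 of 8 rose and 1 fell with Cinnamomi Cortex at 500 µg/mL, among them SKI (0.29 ± 0.05), a corepressor, NEDD4L (0.24 ± 0.03), a ubiquitin ligase, and FKBP1A (0.41 ± 0.07), which holds type I receptors inactive. At most 3 of the 8 were called in any other extract at that dose.

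Of 5 tested further genes known as targets of SMAD1 and SMAD5, 3 rose and 1 fell with Cinnamomi Cortex at 500 µg/mL, 1 fell with Samul-tang and 1 with Rehmanniae Radix Preparata, and none was called with the other extracts at that dose. HEY1 (0.92 ± 0.23), DLX2 (1.15 ± 0.28) and SNAI2 (0.70 ± 0.22) were those that rose with Cinnamomi Cortex, and GATA2 fell (-0.63 ± 0.10). GATA2, a transcription factor of blood and endothelium, also fell with Samul-tang (-0.65 ± 0.10) and Rehmanniae Radix Preparata (-0.40 ± 0.10), the extracts in which ID1 and ID3 were lower. It was at 10.7 ± 1.1 CPM with Cinnamomi Cortex, 10.5 ± 0.81 with Samul-tang and 12.6 ± 0.34 with Rehmanniae Radix Preparata, against 16.6 ± 1.4 in vehicle. These 5 were the ones of 10 listed that passed the filter. In the dose trend GATA2 was called lower with Samul-tang alone (-0.20 ± 0.05), a call that ended in 3 of 14 alternative settings. With Cinnamomi Cortex 2 of the 5 were called higher and 0 lower in that trend, and with Rehmanniae Radix Preparata 0 were called.

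Of 6 tested targets of the TGF-beta branch, 4 rose and 2 fell with Cinnamomi Cortex at 500 µg/mL. CCN2, one of these targets, rose with Cinnamomi Cortex (0.45 ± 0.07), and its dose trend was lower with Samul-tang (-0.25 ± 0.04).

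The inflammatory arm was counted because STAT3 and C/EBP factors also act at the HAMP promoter. CEBPB rose against vehicle in all 6 extracts at 500 µg/mL, by 1.91 ± 0.12 with Cinnamomi Cortex, where it was at 81.7 ± 0.73 CPM against 21.7 ± 2.3 in vehicle, and by 0.64 to 0.96 in the others. Its dose trend was called with Cinnamomi Cortex alone (0.53 ± 0.06). CEBPD also rose in all 6 at that dose, by 1.76 ± 0.10 with Cinnamomi Cortex. It rose by 0.56 ± 0.11 with Sagunja-tang, 0.50 ± 0.11 with Cnidii Rhizoma and 0.48 ± 0.11 with Rehmanniae Radix Preparata. The calls with Astragali Radix (0.39 ± 0.11) and Samul-tang (0.36 ± 0.11) ended in some alternative settings. The dose trend of CEBPD was higher with Cinnamomi Cortex (0.65 ± 0.05) and lower with Samul-tang (-0.19 ± 0.05), a call that ended in 3 of 14 settings. FGA (-0.82 ± 0.04) and FGG (-0.94 ± 0.06), fibrinogen chains of the acute phase, fell with Cinnamomi Cortex, and 13 of 14 genes of this list were called there, 7 higher and 6 lower.

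Of other factors reported at the hepcidin promoter, HNF4A rose (0.39 ± 0.04) with Cinnamomi Cortex at 500 µg/mL. Outside Cinnamomi Cortex no call of HNF4A at 500 µg/mL held in every alternative setting. TCF12, a helix-loop-helix partner of ID proteins, rose with Sagunja-tang (0.28 ± 0.06) and Samul-tang (0.23 ± 0.06).

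Of 12 iron-handling genes 9 rose and 1 fell with Cinnamomi Cortex at 500 µg/mL, 3 rose and 1 fell with Rehmanniae Radix Preparata, and 2 rose and 2 fell with Cnidii Rhizoma. FTH1 (1.01 ± 0.07) and FTL (0.89 ± 0.08), the ferritin chains that store iron, and HMOX1 (0.81 ± 0.05), which frees iron from heme, rose with Cinnamomi Cortex. The same 3 rose with Rehmanniae Radix Preparata, FTH1 by 0.37 ± 0.07, FTL by 0.40 ± 0.08 and HMOX1 by 0.29 ± 0.05, and they also had a dose trend there (0.19 ± 0.03, 0.25 ± 0.04 and 0.14 ± 0.02). With Cnidii Rhizoma FTL rose by 0.46 ± 0.08 and FTH1 by 0.24 ± 0.07, a call of FTH1 that ended in 3 of 11 alternative settings. With Samul-tang, whose HAMP was next to lowest, HMOX1 rose (0.21 ± 0.05), while FTL was at 7084 ± 491 CPM, against 7429 ± 229 in vehicle, and was not called.

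**Figure D5:**
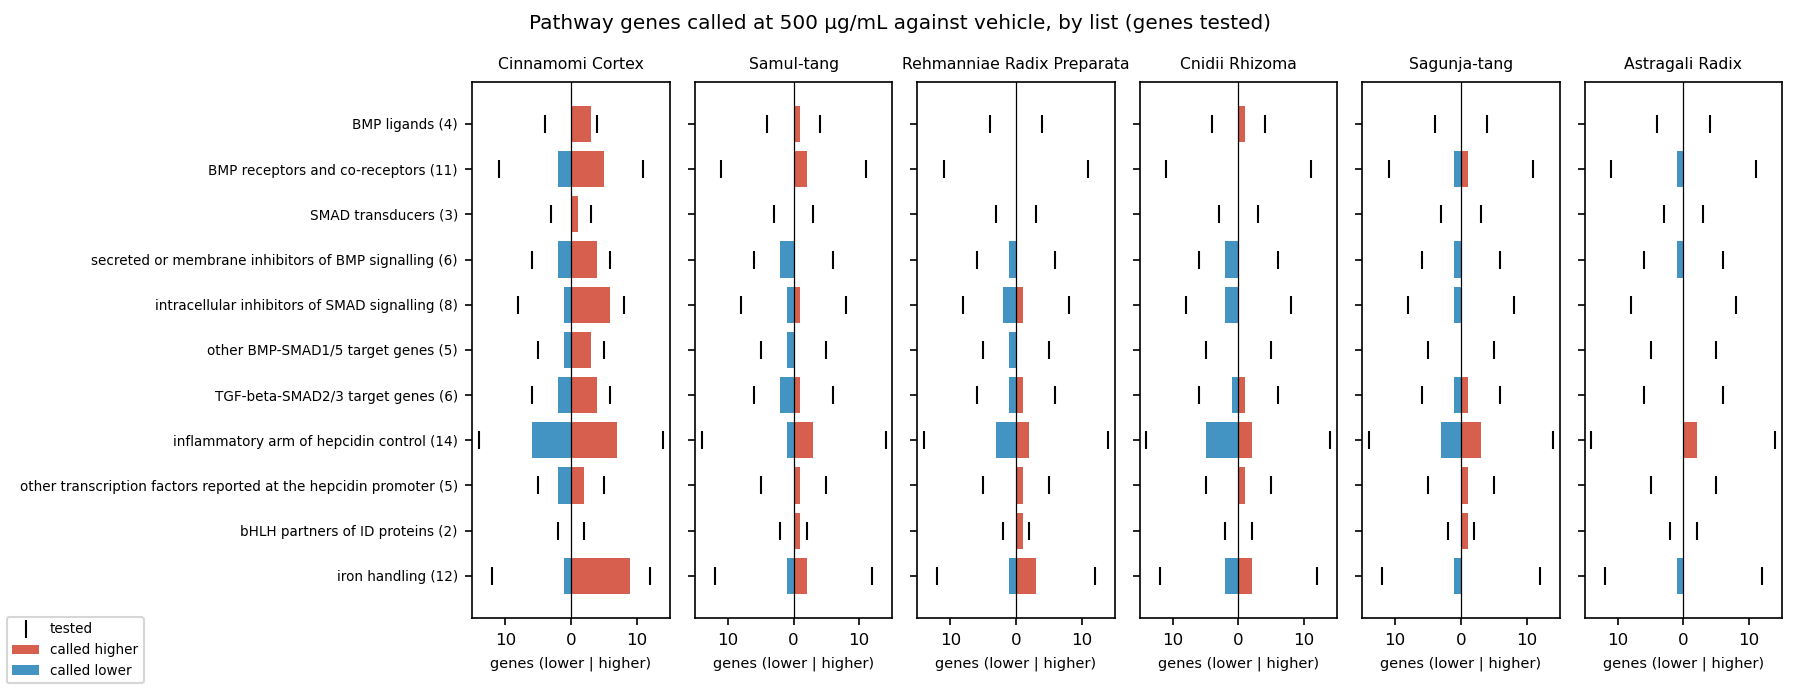
Number of tested genes in each pathway list called higher (red, to the right of 0) and called lower (blue, to the left) at 500 µg/mL against vehicle, 1 panel per extract; black ticks mark the number tested. Cinnamomi Cortex has 44 genes higher and 17 lower of 76 tested over all lists, and Astragali Radix 2 and 3.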

How the data were processed

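RNA of HepG2 cells was sequenced after 24 h with an extract or vehicle, from RNA with an integrity number above 7, as 100 bp paired ends with a directional kit, per the labels. The deposited table holds expected counts, the authors' estimates of reads per gene, unnormalised, with 60675 genes in rows and 270 columns. That they are estimates was inferred from the values, 8.58% of which are not whole. Per the submitters' processing notes, the tools included RSEM 1.3.3, STAR 2.7.3a, Trim Galore 0.6.5 and FastQC 0.11.9, and the build was GRCh38. The 60 columns of vehicle or an extract at a stated dose were used and 210 others were not.

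Expected counts were rounded and fitted with edgeR 4.0.16 (R 4.3.3): filterByExpr, TMM and 1 quasi-likelihood model over 57 libraries in 19 groups, each with its own mean (common dispersion 0.00312). The contrasts were 500 µg/mL against vehicle and the linear trend per 5-fold dose step, for 6 extracts. Tests were two-sided, adjusted by Benjamini-Hochberg over all 16167 genes within a contrast, and called under 0.05. Errors of log2 changes are SE, taken in edgeR as the absolute change over the square root of the F statistic, and others SD. Symbols and positions came from GENCODE 29, in which 57055 IDs were found. The model was tested on simulated data. The 8 genes and the lists were chosen with earlier results of these data known. Beside the 8 genes, a list contributed at most its 4 genes called in the most contrasts (all measured genes for lists of up to 5), and likeness its 5 highest and 5 lowest r. The alternatives were RLE size factors, no filter, DESeq2 1.42.0, a replicate block, a fit of the compared groups alone, CPM of the total count, likeness without Cinnamomi Cortex at 500 µg/mL, and leaving out each library or the set 6 replicate 1 libraries. Total counts of 16.5 to 34.4 M set the precision, and counting error can exceed the printed SD or SE where HAMP has few reads. Some items that the rule for named genes selected are not reported here.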

Additional observations from a re-analysis of the deposited data

Results flagged for a closer look

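For some of the 8 genes, extracts of 1 set lay on opposite sides of vehicle at 500 µg/mL. Every library of 1 extract lay below all vehicle libraries and every library of the other above them. How many of all genes separate in this way was not counted. In the fit of all groups ID2 was not called with Cinnamomi Cortex (-0.12 ± 0.08), and none of the 8 genes was called with Astragali Radix at that dose. A fit of the compared groups alone called 7 of the 8 lower with Cinnamomi Cortex and 2 higher with Astragali Radix. In set 6 the log2 ratio of ID1 to vehicle was -1.21 with Cinnamomi Cortex and 0.27 with Astragali Radix, that of ID2 was -0.12 and 0.22, and that of ID3 was -1.91 and 0.30. In set 7 the log2 ratio of ID3 was -1.66 with Samul-tang and 0.32 with Sagunja-tang, and that of SMAD7 was -0.41 and 0.27. With Sagunja-tang the mean of SMAD7 was 9.01 CPM at 20 µg/mL and 8.38 at 500, against 6.96 in vehicle. Its mean of ID3 was 15.2 and 16.5 CPM, against 13.2 in vehicle. With Astragali Radix the mean of ID3 was 14.8 and 16.3 CPM. These means lay above vehicle already at 20 µg/mL, and this offset and a set difference cannot be told apart. The differences between the extracts were not tested, since the genes were chosen with them known.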

How the results depend on the processing

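No called change of the 8 genes turned its sign in any alternative. Changes near 0 that were not called did, among them BAMBI with Cinnamomi Cortex on total counts (-0.11), ID1 with Cnidii Rhizoma at 500 µg/mL (0.08 without vehicle replicate 1), the ID1 trend with Sagunja-tang (-0.06 without replicate 2 at 500 µg/mL) and the SMAD6 trend with Astragali Radix (-0.05 without replicate 1 at 500 µg/mL). RLE size factors and DESeq2 moved none of the 36 main results (genes called, pathway genes called and HAMP changes). When a fit held the compared groups alone, which leaves fewer libraries to estimate the spread, genes called at 500 µg/mL were 752 for Cnidii Rhizoma, 278 for Astragali Radix and 1014 for Sagunja-tang, where all groups gave 1904, 492 and 1985. Pathway genes called were then 7, 2 and 7, and 10 with Rehmanniae Radix Preparata, where all groups gave 19, 5, 15 and 18. In the dose trend that fit called 320 genes for Cnidii Rhizoma, 97 for Astragali Radix and 72 for Samul-tang (520, 187 and 1597 with all groups), and 5, 3 and 3 pathway genes (9, 5 and 17 with all groups). Without the filter, which adds genes, the dose trend called 281 genes with Rehmanniae Radix Preparata and 292 with Astragali Radix. Without the replicate 1 libraries of set 6, HAMP with Cinnamomi Cortex was at -5.08 against vehicle and the Astragali Radix trend called 110 genes and 3 pathway genes. The cause was not tested for these.

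Leaving out 1 library at a time, genes called at 500 µg/mL ran from 9476 to 9669 with Cinnamomi Cortex, 937 to 2181 with Cnidii Rhizoma, 536 to 851 with Rehmanniae Radix Preparata, 208 to 410 with Astragali Radix, 1225 to 1934 with Sagunja-tang and 1151 to 2160 with Samul-tang. In the dose trend they ran, in the same order of extracts, from 9365 to 10049, 226 to 771, 69 to 108, 101 to 180, 425 to 787 and 153 to 2904. Pathway genes called at 500 µg/mL ran from 53 to 59, 13 to 22, 12 to 16, 3 to 5, 10 to 14 and 15 to 22, and in the trend from 52 to 57, 4 to 11, 5 to 6, 1 to 5, 4 to 9 and 6 to 24. The HAMP change at 500 µg/mL ran from -5.08 to -4.65 with Cinnamomi Cortex and -2.32 to -1.94 with Cnidii Rhizoma, and its trend from -1.04 to -0.85 with Cnidii Rhizoma and -1.88 to -1.68 with Samul-tang.

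Libraries with the same replicate number correlated at -0.10 to 0.18 in their deviations and no comparison had all 3 over 0.1. With Samul-tang at 500 against 20 µg/mL they were 0.05, 0.18 and 0.10. The numbers were not used to pair libraries, although this check cannot exclude a pairing. A replicate block raised the number of genes called in every contrast, and no main result moved. At 500 µg/mL it called 10200 genes with Cinnamomi Cortex and 2329 with Samul-tang, against 10141 and 2212 without it. Depth limits HAMP most, which rests on 4 to 7 reads per library with Cinnamomi Cortex at 500 µg/mL.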
